A study of Arabidopsis thaliana with 6 samples.

Results

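Chlorophyll is made in the plastid from glutamate by a chain of enzymes encoded in the nucleus. The 30 genes described here were taken by their identifiers as members of the pathway, by a rule that uses no measured value, although earlier results of these data were known when the list was made. Of them, 26 encode enzymes or enzyme subunits of tetrapyrrole and chlorophyll synthesis and of the chlorophyll cycle, and 4 are regulators, GUN4, FLU, GLK1 and GLK2. Of these 30, 10 had a value in the deposited comparison of wild-type (WT) and pkl seedlings of Arabidopsis thaliana, a table of 2896 loci. The table lists only loci that were lower in pkl, so the shared direction of these 10 was fixed by the table and is no finding about the pathway. The other 20 were not analysed here, so neither an unchanged nor a higher level can be read for them.

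The study compared whole seedlings of 2 genotypes, WT and the pkl mutant, each at 14 days of age in long days, with 3 libraries of total RNA per genotype. The product of PKL, PICKLE, is a CHD-family remodeler of chromatin. The pkl allele, the background accession and whether the libraries came from separate cultures are not given in the sources used here. Expression was given as FPKM (fragments scaled to transcript length and to the size of the library), as 1 value per genotype and locus. No spread between libraries can therefore be shown, and how deeply they were sequenced is unknown. The authors' q-value is the test behind each difference. The PKL transcript itself was at 19.2 FPKM in the wild type against 6.79 FPKM in the mutant, 2.84-fold lower (q = 0.000338 in the authors' deposited table). In whole seedlings, fewer cells of a type and less RNA per cell cannot be told apart.

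As background, the pathway opens with the formation of aminolevulinic acid (ALA), the step at which the flow into all tetrapyrroles is controlled. ALA is built up to protoporphyrin, where the route divides: an iron branch leads to heme and a magnesium branch to chlorophyll. The GLK transcription factors activate nuclear genes of chlorophyll synthesis and of the light-harvesting antenna, GUN4 stimulates the enzyme that inserts magnesium, and FLU restrains ALA synthesis in the dark. In the chlorophyll cycle, chlorophyll a and b are converted into each other, which sets how much of the antenna pigment b is present.

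The regulator GLK2 had the largest fold of the 10 genes, 2.58, followed by the regulator GUN4 with 1.63 and the enzyme gene CAO with 1.61. The falls were spread over the pathway, with 1 of 3 genes of ALA synthesis, 2 of 7 genes between ALA and protoporphyrin, 3 of 10 of the magnesium branch, 2 of 4 of the chlorophyll cycle and 2 of 4 regulators. GGR and CHLG, which make and attach the phytyl tail, were not analysed here. In all, 33.3% of the 30 genes were called lower, where 14.8% of the 19554 tests implied by the authors' p-values and q-values were called in this direction. Which of the 20 other genes had been tested is not known, so the first share counts all of them as tested, and the difference between the shares was not tested. The second share covers tests at all levels of expression, whereas the 10 genes were well expressed, so levels were not matched.

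**Figure D1:**
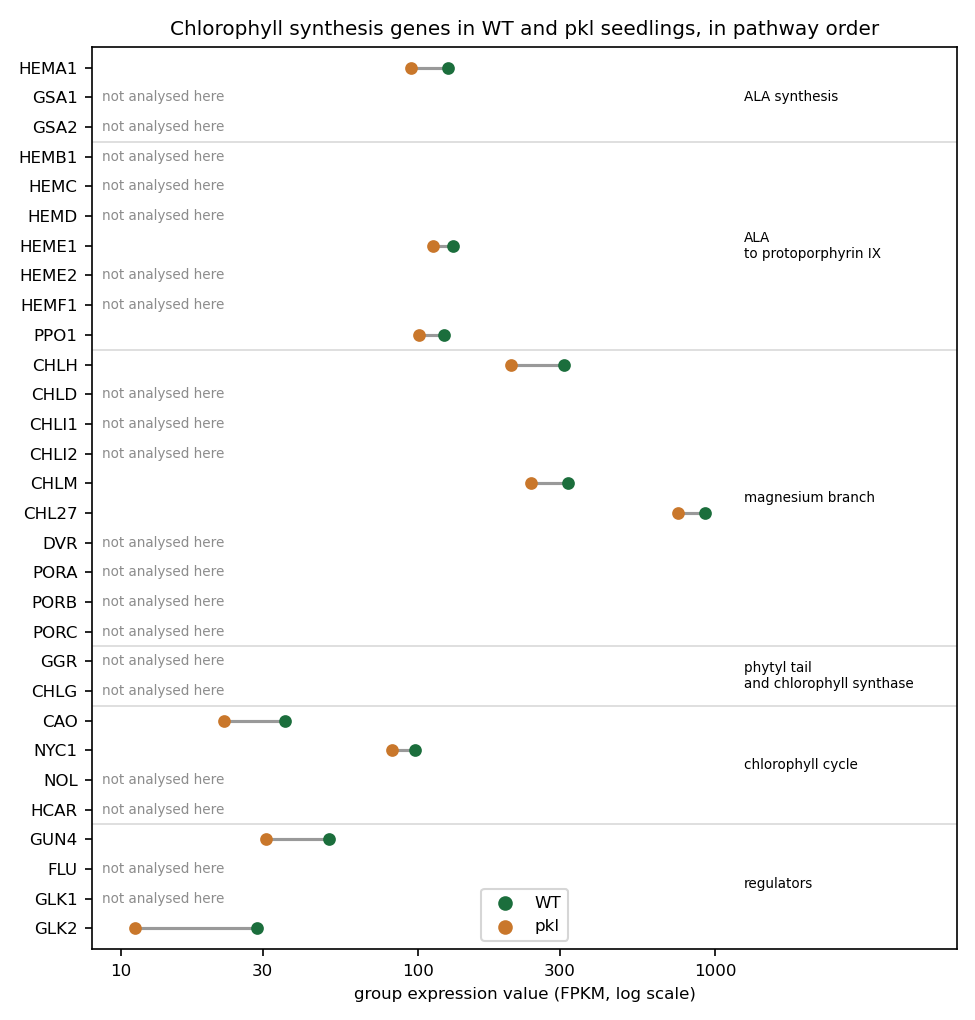
Group expression values (FPKM, log scale) of the 30 genes in pathway order, with 1 point for WT and 1 for pkl, each combining 3 libraries, and no error bar because no values per library were used. In all 10 genes that have points pkl lies to the left of WT, with the widest gap at GLK2, from 28.7 to 11.1 FPKM.

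Promoter sequences of 4 of the lower genes are given first, because the proteins that regulate this pathway act there. GLK2 and HEMA1 are shown as a regulator and as the gene of the first committed step, and CAO and CHL27 as the lower genes with a G-box ahead of the start. The last pair was chosen after the sequences had been searched. Each is the stretch before the annotated gene start, read 5′ to 3′ on the strand of the gene from the RefSeq assembly TAIR10.1. Capitals mark matches to any of 4 motifs: CCAATC, linked to GLK targets; CACGTG, the G-box bound by light-signalling factors; GATAAG, the I-box; and AATATCT, the core of the evening element. The GLK2 stretch is chr5:17798012-17798261 (plus strand), that of HEMA1 is chr1:21626403-21626652 (minus strand), that of CAO is chr1:16851272-16851521 (minus strand) and that of CHL27 is chr3:21076316-21076504 (plus strand). The CHL27 stretch was shortened to 189 bases, where the gene upstream ends.
GLK2: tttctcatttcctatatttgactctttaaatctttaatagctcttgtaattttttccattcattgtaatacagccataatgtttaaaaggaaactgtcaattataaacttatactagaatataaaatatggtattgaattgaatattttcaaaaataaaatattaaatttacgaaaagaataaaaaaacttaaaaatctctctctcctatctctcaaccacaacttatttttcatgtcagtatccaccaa
HEMA1: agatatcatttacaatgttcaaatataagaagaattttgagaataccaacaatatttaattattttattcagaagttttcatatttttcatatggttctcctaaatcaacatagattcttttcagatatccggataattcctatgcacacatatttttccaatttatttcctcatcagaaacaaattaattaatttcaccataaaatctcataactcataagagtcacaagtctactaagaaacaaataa
CAO: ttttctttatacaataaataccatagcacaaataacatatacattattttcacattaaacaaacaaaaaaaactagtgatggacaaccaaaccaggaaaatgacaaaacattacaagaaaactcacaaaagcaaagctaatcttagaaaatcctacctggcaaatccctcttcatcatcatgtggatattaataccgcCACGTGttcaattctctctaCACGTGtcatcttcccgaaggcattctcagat
CHL27: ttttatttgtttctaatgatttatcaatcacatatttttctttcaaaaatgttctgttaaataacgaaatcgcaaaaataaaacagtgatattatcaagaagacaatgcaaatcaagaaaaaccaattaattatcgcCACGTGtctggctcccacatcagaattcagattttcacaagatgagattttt

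None of the 4 motifs lay in the GLK2 or HEMA1 stretches. The CAO stretch held the G-box at 2 places, with first bases 52 and 32 bases before the start, and the CHL27 stretch held it once, also 52 bases before the start. A match is a description of the letters and not a bound site.

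GLK2 (AT5G44190; locus on chromosome 5, positions 17798369 to 17800824) encodes a GARP-type transcription factor that acts within each cell on chloroplast development. Its transcript level was 28.7 FPKM in WT against 11.1 FPKM in pkl. This is a 2.58-fold difference (log2 fold change -1.37), the only one of the 10 of at least 2-fold. Counted over all 30 genes this is 1 of 30, to be set beside 3.83% of all tests. A larger fall was present at 13.3% of the 2896 loci. Its partly redundant partner GLK1 was not analysed here, so the summed level of the pair is unknown. The coding sequences of the pair align at 78.2% identity over 17% of GLK2.

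GUN4 (AT3G59400) encodes a porphyrin-binding protein that stimulates magnesium chelatase. Its locus had a level of 50.1 FPKM in WT against 30.7 FPKM in pkl, which was 1.63-fold lower (log2 fold change -0.71). This value carries a limit of its own: the assembled locus, chromosome 3 positions 21946089 to 21959266, spans 13.2 kb, whereas the annotated GUN4 gene has 1 exon and spans 1.3 kb. On the opposite strand the annotated gene of the kinase GCN2 overlaps GUN4 by 946 bases and fills most of the locus, and a further coding gene, AT3G59390, lies at its other end. The table names GUN4 alone for this locus, and the labels do not state whether the libraries kept strand. The share of GUN4 in the 50.1 FPKM was not tested. FLU, the other regulator of the list, was not analysed here.

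HEMA1 (AT1G58290; locus on chromosome 1, positions 21623726 to 21626200) encodes the main glutamyl-tRNA reductase of green tissue, the first enzyme committed to ALA. It fell from 125.8 to 94.9 FPKM, 1.33-fold (log2 fold change -0.41). HEMA2, its closest relative at 80.2% identity of the coding sequence, was not analysed here. The same holds for GSA1 and GSA2, which encode the aminomutase of the following step.

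Between ALA and protoporphyrin the falls were small. HEME1 (AT3G14930), a uroporphyrinogen decarboxylase, had 131 FPKM in WT against 111.7 FPKM in pkl, 1.17-fold lower, and its q-value of 0.0401 in the authors' deposited table was the highest of the 10. The smallest fold anywhere in the table was 1.16, so HEME1 lies at the edge of what was called. PPO1 (AT4G01690), the plastid protoporphyrinogen oxidase at the end of this stretch, fell from 122 to 100.7 FPKM, 1.21-fold. HEMB1, HEMC, HEMD, HEME2 and HEMF1, the other enzymes between ALA and protoporphyrin, were not analysed here.

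In the magnesium branch the 3 lower genes stood at the highest levels of the 10. CHLH (AT5G13630; chromosome 5, positions 4387334 to 4392227), the large porphyrin-binding subunit of magnesium chelatase, also known as GUN5, fell from 311 to 206 FPKM. That is a 1.51-fold difference (log2 fold change -0.59), the largest of the 3 genes of the branch that could be read. CHLD, CHLI1 and CHLI2, which encode the other subunits of the chelatase, were not analysed here, so the subunits cannot be compared. CHLM (AT4G25080), the methyltransferase of the following step, had 320 FPKM in WT against 239 FPKM in pkl, 1.34-fold lower. CHL27 (AT3G56940), a subunit of the cyclase that closes the fifth ring, fell from 921 to 751 FPKM, 1.23-fold. Its fold was among the smaller ones, yet its difference in level, 169.97 FPKM, was the largest of the 10. DVR, the vinyl reductase, and PORA, PORB and PORC, the light-dependent protochlorophyllide reductases, were not analysed here.

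Both directions of the chlorophyll cycle were represented. CAO (AT1G44446; chromosome 1, positions 16848359 to 16851224), the oxygenase that makes chlorophyll b, fell from 35.7 to 22.2 FPKM, 1.61-fold (log2 fold change -0.69). NYC1 (AT4G13250; chromosome 4, positions 7684156 to 7687019), a chlorophyll b reductase that starts the way back to chlorophyll a, had 97.9 FPKM in WT against 81.7 FPKM in pkl, 1.2-fold lower. NOL, the partner of NYC1, and HCAR, which completes the return to chlorophyll a, were not analysed here. The difference between the folds of CAO and NYC1 was not tested, since no error is available for either.

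Of the 10 genes, 6 had the smallest q-value in the authors' deposited table, 0.000338: GLK2, GUN4, CAO, CHLH, CHLM and HEMA1. This q-value was shared by 49.3% of all loci listed. The q-values of PPO1, CHL27 and NYC1 in the authors' deposited table were 0.0146, 0.0179 and 0.0182. The authors' test statistic, a signed score, ran from -6.92 for GLK2 to -1.44 for HEME1. GUN4 had a statistic of -2.40 and CAO one of -4.05 at nearly the same fold.

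The 10 genes were well expressed, and most of their falls were modest. All 10 lay above the table's median WT level of 16.8 FPKM, with a median of 124 FPKM in WT and 97.8 FPKM in pkl. Their median fold was 1.33 (median log2 fold change -0.41), below the median of 1.52 over all 2896 loci. In the range of WT levels that the genes cover, 28.7 to 921 FPKM, the table held 972 other loci, with a median fold of 1.4 and quartiles of 1.26 and 1.69. Only GLK2 was above that upper quartile, whereas HEME1, NYC1, PPO1 and CHL27 were below the lower one. A fold of at least 1.5 was reached by 4 of the 10 genes (GLK2, GUN4, CAO and CHLH), 40% against 52.2% of all loci in the table. Counted over all 30 genes this is 4 of 30, to be set beside 7.74% of all tests.

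The genes with the lowest WT levels had the largest folds. GLK2, CAO and GUN4 stood at 28.7 to 50.1 FPKM and fell 1.61-fold to 2.58-fold, whereas the other 7 genes, at 97.9 FPKM or more, fell 1.17-fold to 1.51-fold. Spearman's rho between WT level and fold was -0.48 across the 10 genes and -0.40 across all 2896 loci. The 2 values cover unlike ranges, since the median WT level of all loci, 16.8 FPKM, lies below the lowest of the 10 genes. Both share the same libraries and the same threshold, so the relation within the pathway is described and not tested. At 10 to 50 FPKM the median fold of 1116 loci was 1.41, to be set beside 2.58 for GLK2 and 1.61 for CAO. The median of 326 loci at 50 to 100 FPKM was 1.43, below GUN4 and above NYC1. At 100 to 500 FPKM the median of 286 loci was 1.39, above HEMA1, CHLM, PPO1 and HEME1 and below CHLH. For 39 loci at 500 to 1000 FPKM it was 1.35, above CHL27.

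**Figure D2:**
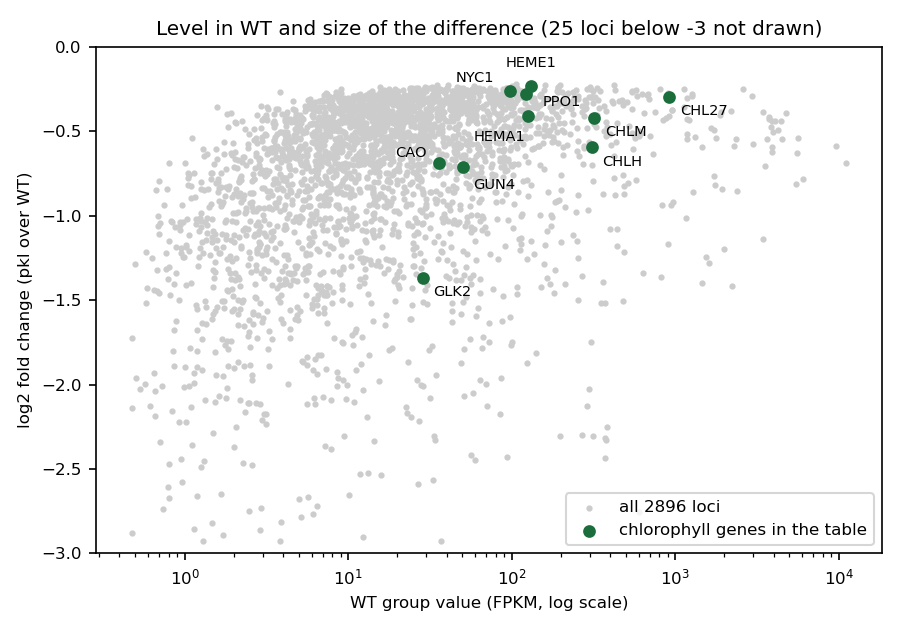
WT group value (FPKM, log scale) against log2 fold change (pkl over WT) for the 2896 loci of the table in grey and the 10 chlorophyll genes in green, with 25 loci below -3 not drawn. GLK2 at -1.37 stands apart from the other 9, which lie between -0.71 and -0.23.

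Neighbouring genes limit 4 of the 10 values. The locus of CHLM covers 11.5 kb against 1.88 kb for the gene, and the table names AT4G25070 with it, while a further coding gene, AT4G25090, lies on the opposite strand. The CHL27 locus (chromosome 3, positions 21076501 to 21079895) extends over the aquaporin gene SIP2;1, and the PPO1 locus (chromosome 4, positions 729802 to 733510) extends over AT4G01700, both on the opposite strand. The annotated genes overlap by 147 bases for CHL27 and 121 bases for PPO1. GUN4 is the fourth case. Among the 2742 loci of the table with 1 named gene, 17.6% overlapped another annotated coding gene. That share leaves out loci with several named genes, such as the locus of CHLM. GLK2, HEMA1, HEME1, CHLH, CAO and NYC1 had loci of their own. With these 6 alone the median log2 fold change was -0.50. No coding sequence of the 30 genes matched another gene at 95% identity or more over 80% of its length.

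**Figure D3:**
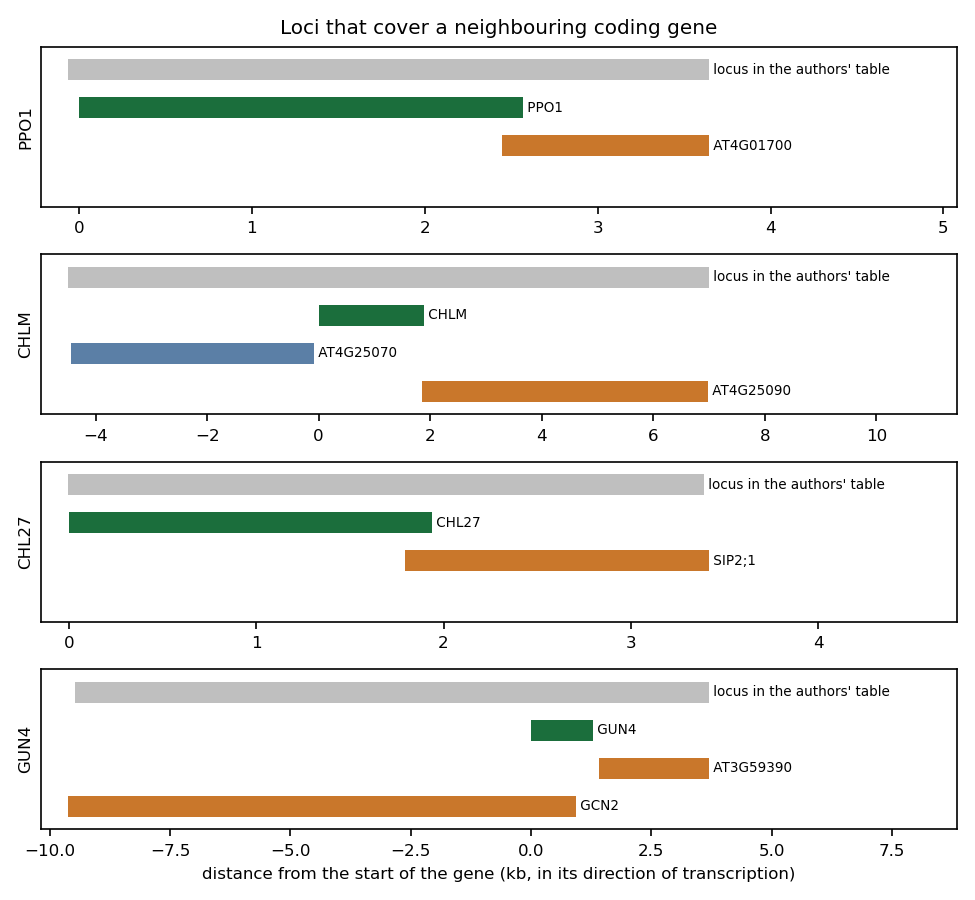
Spans of the assembled locus (grey), the named gene (green) and other annotated coding genes (blue on the same strand, orange on the opposite strand) in kb from the start of the gene, for PPO1, CHLM, CHL27 and GUN4. GUN4 takes up 1.3 kb of a 13.2 kb locus, and GCN2 overlaps it.

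The motif search was extended to all 30 promoters, in windows from 250 bases before to 50 bases after the annotated start, on both strands. No 2 of the matches overlapped. CACGTG was present in 5 of the 30 promoters (16.7%), and in 7.68% of the 27443 promoters of nuclear protein-coding genes. Of the 10 lower genes, CHL27, CAO and NYC1 held it, that of NYC1 lying 35 bases after the start. CCAATC was found in 6 of 30 (20%) against 12.3% of all promoters, and among the lower genes in PPO1, CHLH and GUN4. In GUN4 it began 13 bases before the start, within the stretch that GCN2 also covers.

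GATAAG was present in 7 of the 30 promoters (23.3%) against 14.6% of all, among the lower genes in CAO and GUN4. AATATCT was in 6 of 30 (20%) against 11.5% of all, among the lower genes in NYC1 and GUN4. The windows of GLK2, HEMA1, HEME1 and CHLM held none of the 4 motifs. No test was made of these shares. Genes whose level was not analysed here held motifs too, such as PORB, with CCAATC at 2 places.

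The genes around the pathway were read from lists of its neighbours. Each count below is to be read against the 14.8% of all tests that were called lower, and no difference from that share was tested. That share covers tests at all levels of expression and was not matched to the levels of any list. Genes of a list outside the table have no level here, so they are not shown to be unchanged. Of 8 genes of plastid isoprenoid supply, which delivers the phytyl tail of chlorophyll, 5 were called lower (62.5%, against 14.8% of all tests). DXS, the entry enzyme of that route, fell from 145 to 96.5 FPKM, 1.5-fold, while HDR, MDS, DXR and HDS fell 1.2-fold to 1.27-fold. MCT, CMK and GGPPS11 were not analysed here.

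Among 15 isoforms and partners of the synthesis enzymes, 4 were called lower (26.7%, against 14.8% of all tests). BCM1 (AT2G35260), a thylakoid protein that stimulates magnesium chelatase through GUN4 and slows chlorophyll breakdown, fell from 87.7 to 46.7 FPKM, 1.88-fold. The regulator GUN4 and the chelatase subunit gene CHLH had folds of 1.63 and 1.51, and these differences between genes were not tested. The limit given above for the GUN4 locus holds here too. Its relative BCM2 fell 1.28-fold, from 53.4 to 41.6 FPKM, and the one-helix proteins OHP1 and OHP2, which assist photosystem assembly, fell 1.37-fold and 1.24-fold. The loci of OHP1, OHP2 and DXR also overlap a neighbouring coding gene.

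Of 8 genes listed under heme and bilins, 1 was called lower, 12.5% against 14.8% of all tests, which is near the background. HO1, the main heme oxygenase of phytochrome chromophore synthesis, fell from 132 to 106.6 FPKM, 1.23-fold. Of 11 genes of chlorophyll breakdown, 1 was called lower, 9.09% against 14.8% of all tests. It was SGRL, which encodes a relative of the magnesium-removing stay-green proteins and fell from 45.4 to 30.5 FPKM, 1.49-fold. The ferrochelatases FC1 and FC2 and the breakdown enzymes PAO and PPH were not analysed here.

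Of 16 regulators of light signalling and greening, 6 were called lower (37.5%, against 14.8% of all tests). GNC and CGA1 encode GATA factors that, like the GLK proteins, promote chloroplast development, and they fell 1.79-fold (from 11.7 to 6.54 FPKM) and 1.49-fold (from 5.45 to 3.66 FPKM). PIF4 and PIF5, phytochrome-interacting factors of elongation growth, fell 1.74-fold and 1.32-fold. RVE1, a clock-related MYB factor reported to act on PORA, fell 2.52-fold at a low level, from 2.56 to 1.02 FPKM, at a locus that overlaps AT5G17305, and SIG6, a plastid sigma factor, fell 1.19-fold. HY5 and PIF1 were not analysed here.

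Antenna proteins bind the chlorophyll that the pathway makes. Of 18 antenna genes, 15 were called lower (83.3%, against 14.8% of all tests). Their median fold was 1.63, to be set beside 1.33 for the 10 chlorophyll genes. Their folds ran from 1.31 for LHCB5 to 2.84 for LHCB2.3, so GLK2 lay within their range and HEME1, NYC1, PPO1 and CHL27 lay below it. Near-identical copies among the LHCB genes and neighbouring genes under some antenna loci make single antenna values uncertain. Both sets were read from the same libraries, and the difference between them was not tested.

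Some markers of root tissue and of green mesophyll were called lower as well. Of 14 markers of root tissue, 7 were called lower (50%, against 14.8% of all tests), and the other 7 were not analysed here. Their median fold was 1.91, and their summed level was 158 FPKM in WT and 101.5 FPKM in pkl. The highest WT levels were those of PHT1;1 (56.3 FPKM, 1.3-fold lower), CASP1 (48.5 FPKM, 1.94-fold) and CASP2 (35.0 FPKM, 1.39-fold). The other lower root markers stood at only 1.96 to 8.14 FPKM in WT, and the median fold was that of THAS, at 4.14 FPKM. The loci of CASP1 and CASP2 overlap neighbouring coding genes, and the table names AT3G11540 with CASP2. Of 8 mesophyll markers, 2 were called lower (25%, against 14.8% of all tests): RBCS2B by 1.41-fold and PRK, the phosphoribulokinase of the Calvin cycle, by 1.21-fold, with a summed level of 2363 FPKM in WT and 1751 FPKM in pkl. The part of tissue composition in the chlorophyll genes was not tested.

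**Figure D4:**
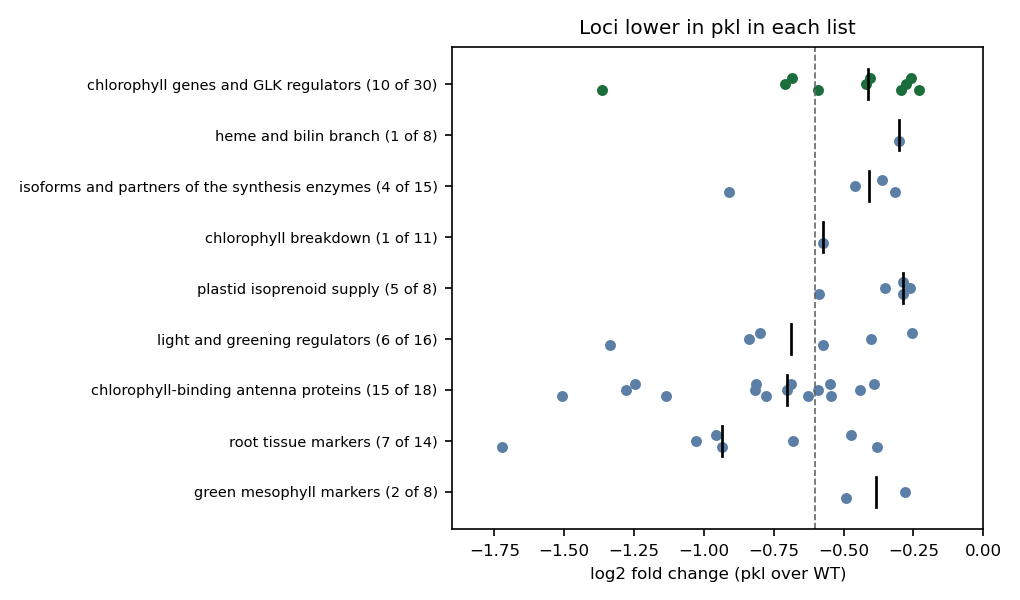
Log2 fold change (pkl over WT) of each gene lower in pkl, by list, with the number of lower genes and the size of the list in brackets, a black bar at the list's median and a dashed line at the median of all 2896 loci. The chlorophyll genes have their median at -0.41, the isoprenoid genes at -0.29 and the antenna genes at -0.70.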

How the data were processed

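Total RNA of whole seedlings had been sequenced in 6 libraries, 3 of WT and 3 of pkl. Reads had been processed with TopHat, Cufflinks 2.1.1 and Cuffdiff 2.1.1 on TAIR10, per the submitters' processing notes. Per the file headers, the deposited table gives FPKM per locus and genotype, the log2 fold change, a test statistic (a signed score), and the p-value and q-value. It held lower loci alone. The deposited log2 values matched the ratio of the FPKM columns to within 1.23e-05.

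Members were found by identifier in the gene column. The number of tests, 19554, was recovered from the ratio of p to q, which gives ranks that lie 0.017 or less from a whole number (0.311 for 19555, the next best). On simulated tables it was recovered in 10 of 10. Locus starts, 0-based in the table, are printed 1-based. RefSeq TAIR10.1 was the source of symbols, promoters and coding sequences (compared with BLAST+ 2.17.0), and its genes overlapped the matching locus in 2740 of 2740 single-gene cases.

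Members and lists were chosen with earlier results of these data known. Every member in the table is named, and at most 5 lower genes per neighbouring list were to be named; for the regulators all 6 are. The antenna list was added later. CAO and CHL27 promoters were chosen after the search.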

Additional observations from a re-analysis of the deposited data

How the results depend on the processing

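Of the 10 genes called lower, 9 were left with loci of 1 named gene alone. Filters of 1 and 5 FPKM in WT could remove none, since the lowest WT level was 28.7 FPKM. At q under 0.01, 6 of the 30 genes were left, where 11% of all tests were called. With a fold of at least 1.5, 4 of the 30 were left, where 7.74% of all tests were called. With a fold of at least 2, 1 of the 30 was left, no higher than the 3.83% of all tests. These differences were not tested. Without loci that overlap another annotated coding gene, a choice made after the data were seen, 6 were left and their median log2 fold change was -0.50 in place of -0.41. Pseudocounts of 0.1 and 1 FPKM cannot turn a direction; they moved the log2 fold change of GLK2 from -1.37 to -1.36 and -1.29. With the part before the start alone, CCAATC was left in 1 and GATAAG in 0 of the 10 promoters. Of the 30 promoters, CCAATC was then in 10% against 10.2% of all promoters, and GATAAG in 10% against 12.3%. CACGTG was in 13.3% against 6.49%, and AATATCT in 20% against 10%. None of these shares was tested. Leaving out each library was not run, since no library has values of its own here. No paired analysis was possible because each genotype came as 1 combined value. The unknown depth leaves the precision of each value unknown.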

Other observations

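Some genes next to the chlorophyll genes on the chromosome were lower too. Of the 10 lower genes, 2 had a directly neighbouring coding gene with a row of its own in the table, HEMA1 (AT1G58280) and CHLH (PDAT, AT5G13640, a phospholipid:diacylglycerol acyltransferase). Among loci of 1 gene in the whole table, 738 of 2696 (27.4%) had such a neighbour. The share among the 10 genes was 20%, and the difference was not tested. CHLM, whose row also names its neighbour AT4G25070, is counted among the 10 as having no such neighbour. Loci of several genes are left out of the 27.4%, so the shares are not fully alike.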
